A study of Mus musculus with 4 samples.

Results

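Myeloma cells were ranked by how much of their RNA came from 6 endoplasmic reticulum (ER) chaperone genes, and the cells rich in these transcripts were compared with the cells poor in them across all other genes. The cells carried the plasma cell surface profile CD138+ B220- and were labelled as donor derived, from bone marrow (libraries VQ_BM replicate 1 and VQ_BM replicate 2) and lymph node (library VQ_LN) of C57/BL6 recipient mice with multiple myeloma. All 3 libraries bear the same genotype: the MYC transgene V{kappa}*MYC, under kappa light chain regulatory sequence, the Cre-dependent allele Nras LSL Q61R/+ of the signalling GTPase Nras, and IgG1-Cre, which drives recombination from the IgG1 locus. No age is given for the VQ cells, and the labels state neither how many mice were used nor whether the 3 libraries came from different mice. The titles of all 3 libraries carry the same tag, VQ-D2, shortened here to VQ, so a common donor is possible. A further library, of wild-type C57/BL6 bone marrow cells with the same surface profile, was age-matched per the study design and is used here only to set levels.

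The tables held 781 cells, of which 618 were VQ cells. A VQ cell entered the ranking with at least 2000 unique molecular identifiers (UMIs, 1 per captured transcript) and with Jchain, the joining chain of secreted IgA and IgM, under 5% of its UMIs. These limits kept 435 VQ cells, 180 and 109 from marrow replicates 1 and 2 and 146 from the node. Within each library the cells were ranked by the summed UMIs of Hspa5, Hsp90b1, Calr, Pdia6, Pdia4 and Manf over all their UMIs. The cells of the groups were thus chosen by the share of these 6 genes: the top of 3 equal parts is the chaperone-high group, the bottom the chaperone-low group. The high group held 60, 36 and 48 cells in marrow replicate 1, marrow replicate 2 and the node, and the low group held the same numbers, so that 144 high cells were set against 144 low cells. No cell barcode occurred in more than 1 library.

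Plasma cells secrete antibody in bulk, and their chains fold in the ER with the help of chaperones and disulfide isomerases. When unfolded protein builds up, the unfolded protein response acts through 3 ER sensors, Ire1 (Ern1), Perk (Eif2ak3) and Atf6: Ire1 splices Xbp1 mRNA, cleaved Atf6 moves to the nucleus, and Perk slows translation and favours Atf4. Spliced Xbp1 and cleaved Atf6 are known to raise chaperone and ER-associated degradation genes through short promoter elements, among them the ER stress response element (ERSE). In plasma cells the Xbp1 arm is also part of normal differentiation.

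The 6 ranking genes together made up a median of 1.52% and 1.55% of the UMIs of a cell in marrow replicates 1 and 2, and 1.94% in the node. These values chose the cells and are given as a description, with no test. The median share was 1.99% in the high group and 1.05% in the low group of marrow replicate 1, 2.14% and 1.19% in those of marrow replicate 2, and 2.70% and 1.48% in those of the node. There was no gap in the ranking: the last cell inside the high group and the first outside it had 1.699% and 1.691% in marrow replicate 1, 1.744% and 1.735% in marrow replicate 2, and 2.232% and 2.194% in the node. At the lower limit the last cell inside the low group and the first outside it had 1.304% and 1.305%, 1.358% and 1.360%, and 1.718% and 1.722% in the same library order. In all, 52, 38 and 40 cells lay within 0.1 percentage points of a limit, so the groups are ranges of a continuous measure and not cell types. With both limits applied, the 30 wild-type cells had a median share of 0.292%, and without the Jchain limit, which takes out antibody-secreting cells, the 83 wild-type cells had 1.08%.

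**Figure D1:**
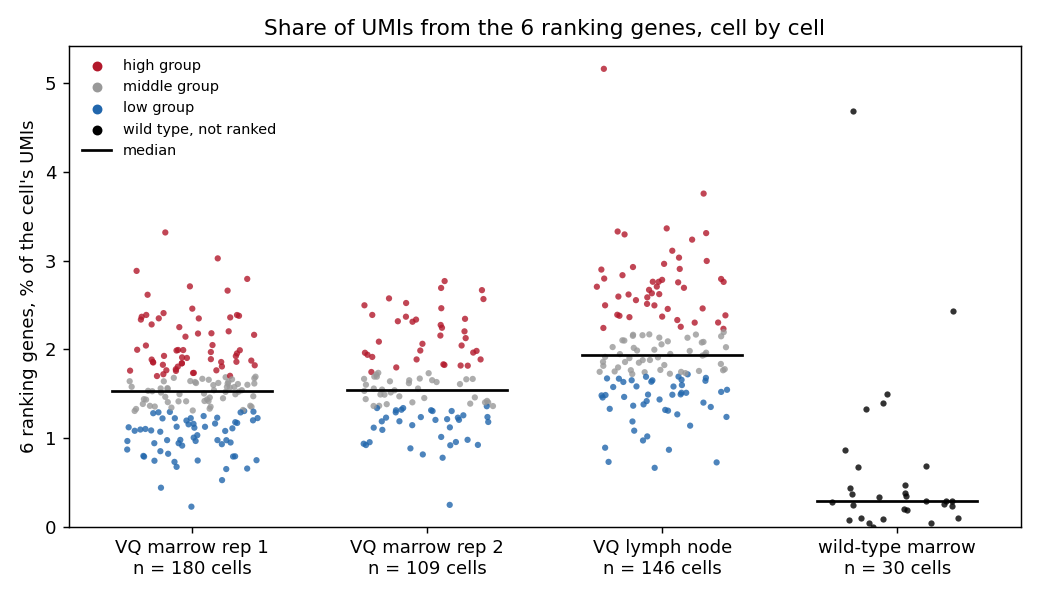
Each point is a cell with at least 2000 UMIs and Jchain under 5% of UMIs, and the vertical axis is the percent of its UMIs that came from the 6 ranking genes. Colours mark the high, middle and low groups of each VQ library, the horizontal bars are medians, and the 30 wild-type cells at the right were not ranked. The 3 colours meet without a gap in each VQ library, and the node cells sit higher, with a median of 1.94%.

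Hspa5, the ER Hsp70 chaperone BiP that holds unfolded chains and keeps the stress sensors inactive, had 6276, 6192 and 8711 CPM (UMIs scaled to the same total in each sum) in the high groups of marrow replicate 1, marrow replicate 2 and the node, against 2414, 2662 and 3198 CPM in the low groups. It had the widest split of the 6 in the node, with a ratio of high to low of 2.72. Hsp90b1, the ER Hsp90 known as Grp94, had 4889.9, 4503 and 6079.6 CPM in the high groups against 2307, 2380.5 and 3080 CPM in the low groups. Manf, a small secreted ER stress protein, had ratios of 2.54, 2.03 and 1.59 in the same library order. The ratios of Calr (calreticulin, a lectin chaperone) ranged from 1.56 to 1.76, those of the disulfide isomerase Pdia6 from 1.54 to 1.78 and those of its relative Pdia4 from 1.87 to 2.44. All 6 genes were thus higher in the high group of each library, as the ranking on their sum favours.

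For the comparison, the 6 ranking genes were removed, each cell was thinned at random to 1800 UMIs of the other genes, and UMIs were summed per library and group. The 6 sums were tested with edgeR's quasi-likelihood test with the library as a block. A gene was called at a Benjamini-Hochberg adjusted p under 0.05 over all genes tested and the same direction in all 3 libraries. Values of a group are given below in the order marrow replicate 1, marrow replicate 2 and node. They are CPM of the other genes scaled by the trimmed mean of M values (TMM). Each log2 fold change (high over low) has the standard error implied by edgeR's test on the 3 libraries. That test shares variance estimates between genes, with a median of 13.5 prior against 2 residual degrees of freedom in the fit on thinned sums. A standard error or p-value thus does not measure the spread of that gene between the 3 libraries alone. That spread may be partly technical.

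At equal depth, 11 of 1847 genes were called higher in the high group (0.596% of the genes tested) and 1 was called lower (0.0541%). Of the 11, 9 belong to the secretory pathway: the ER co-chaperones Creld2, Dnajc3 and Serp1, the disulfide isomerase Pdia3, the translocon-associated proteins Ssr1, Ssr2 and Ssr3, and the ER-associated degradation genes Derl3 and Edem1. Lists of secretory pathway genes held 143 of the 1847 genes tested, and these 9 were their only calls. The other 2 were Ly6c2, a surface protein of plasma cells among other blood cells, and Cdk2ap2, which encodes a Cdk2-associated protein. The gene called lower was Tmsb4x, which encodes the actin-binding peptide thymosin beta 4. The median log2 fold change of all 1847 genes was 0.0024, close to 0. The count rested on all 3 libraries: 2 genes were called higher and 0 lower without marrow replicate 1, 5 and 0 without marrow replicate 2, and 9 and 9 without the node, while DESeq2 called 3 higher (Creld2, Serp1 and Ly6c2) and 0 lower. Of the 20 alternative settings planned, Serp1 stayed called in 18, Edem1 in 17, Ly6c2, Ssr2 and Ssr3 in 15, Derl3, Dnajc3 and Pdia3 in 14, Tmsb4x in 12, Ssr1 in 10 and Cdk2ap2 in 7.

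Creld2, an ER-resident protein with disulfide isomerase activity that is known to be induced by ER stress, had the largest log2 fold change of the 12. It had 911, 1209.8 and 2107 CPM in the high groups, against 428, 506 and 647 CPM in the low groups. The 2 groups did not overlap, and the node had the highest value in each. The log2 fold change was 1.40 ± 0.16 (SE, n = 3 libraries; edgeR adjusted p = 0.000306). Creld2 stayed called in all 20 alternative settings planned for it, with log2 fold changes between 1.00 and 1.63. It was also the only one of the 12 called genes still called without marrow replicate 1.

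Pdia3, also known as ERp57, which forms disulfides in glycoproteins held by calreticulin and calnexin, had 396, 589 and 757 CPM in the high groups, against 205, 322 and 289 CPM in the low groups. The log2 fold change was 1.10 ± 0.21 (SE, n = 3; edgeR adjusted p = 0.0216), and the lowest high group lay above the highest low group. It rested on 214 thinned UMIs, and when each cell was thinned to 1000 UMIs its log2 fold change was 0.07 (edgeR adjusted p = 0.959), against 0.86 on all UMIs. Dnajc3, a J-domain co-chaperone of BiP also known as P58IPK, had 1095, 1458 and 1676 CPM in the high groups, against 651, 843 and 1121 CPM in the low groups. Its groups overlapped across libraries, since the low group of the node exceeded the high group of marrow replicate 1, but within each library the high group was higher (log2 fold change 0.69 ± 0.13, SE; edgeR adjusted p = 0.0170). Serp1, a small protein of the translocon that is known to steady new membrane proteins under ER stress, had 8144, 9135 and 7253 CPM in the high groups, against 6091, 7231 and 5534 CPM in the low groups (0.38 ± 0.05; edgeR adjusted p = 0.00112).

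Derl3 encodes a derlin, a membrane protein through which misfolded proteins leave the ER. It had 488, 574 and 827 CPM in the high groups, against 242, 291 and 427 CPM in the low groups, so that the groups did not overlap (log2 fold change 0.97 ± 0.19, SE; edgeR adjusted p = 0.0217). Edem1, a mannosidase-like protein that marks misfolded glycoproteins for that route, had 4767, 5134 and 3504 CPM in the high groups, against 3497, 4014 and 2681 CPM in the low groups. The node was the lowest library in both groups, and within each library the high group was higher (log2 fold change 0.40 ± 0.07, SE; edgeR adjusted p = 0.00843).

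The translocon-associated protein complex sits beside the channel through which new chains enter the ER, and 3 of its subunits were called. Ssr1 had 994, 1225 and 1211 CPM in the high groups, against 623, 659 and 763 CPM in the low groups (log2 fold change 0.73 ± 0.14, SE; edgeR adjusted p = 0.0217). Ssr3 had 2061, 2094 and 1979 CPM in the high groups, against 1181, 1655 and 1479 CPM in the low groups (0.54 ± 0.11; edgeR adjusted p = 0.0320). For both, the high and low groups did not overlap over the 3 libraries. Ssr2 had 4610.2, 4622 and 5588 CPM in the high groups, against 3199, 3707 and 4518 CPM in the low groups (0.39 ± 0.07; edgeR adjusted p = 0.0115).

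Ly6c2, Cdk2ap2 and Tmsb4x lie outside the secretory pathway. Ly6c2 had 7729.8, 9166 and 3493 CPM in the high groups, against 5589, 6894 and 3062 CPM in the low groups (log2 fold change 0.38 ± 0.06, SE; edgeR adjusted p = 0.00833). Cdk2ap2 had 432, 465 and 722 CPM in the high groups, against 251, 291 and 266 CPM in the low groups (1.00 ± 0.22; edgeR adjusted p = 0.0492), and with another thinning seed its log2 fold change was 0.37 (edgeR adjusted p = 0.704). Tmsb4x had 1077, 791 and 547 CPM in the high groups, against 1562, 2191 and 774 CPM in the low groups (-0.82 ± 0.16; edgeR adjusted p = 0.0278). On all UMIs of the same cells the node split was small for Tmsb4x (676 against 712 CPM) and Ly6c2 (3311 against 3104 CPM). The log2 fold changes were then -0.53, -1.37 and -0.07 for Tmsb4x and 0.37, 0.29 and 0.09 for Ly6c2. Ly6c2 is a member of a family of near-identical genes, whose reads the counting could split. An alternative left out cells with UMIs of at least 3 different markers from 1 list of another cell type, where MHC class II genes were 1 such list. All 3 calls were then lost, with log2 fold changes of 0.19 for Ly6c2, 0.44 for Cdk2ap2 and -0.58 for Tmsb4x, and edgeR adjusted p = 0.201, 0.564 and 0.0696.

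**Figure D2:**
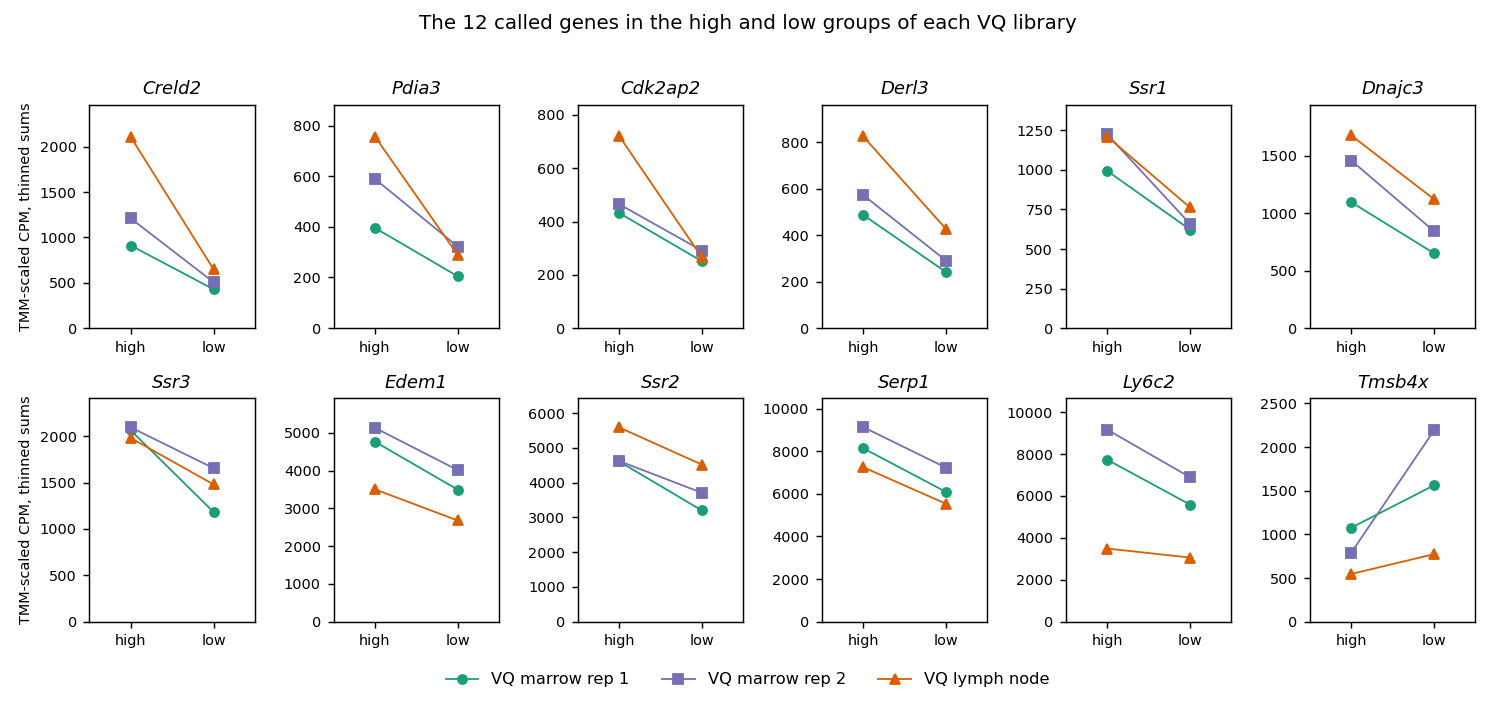
Each panel is 1 of the 12 genes called at equal depth, with TMM-scaled CPM of the thinned sums on the vertical axis and a line for each library joining its high group (left) to its low group (right). All lines slope down for the 11 genes called higher, steepest for Creld2 in the node (2107 against 647 CPM), and all 3 slope up for Tmsb4x.

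Neutrophil RNA moved with the groups in the marrow. The neutrophil and myeloid markers, 16 of 18 with a UMI, summed to 343 CPM in the high group and 2389 CPM in the low group of marrow replicate 1, to 228 and 5356 CPM in those of marrow replicate 2, and to 145 and 131 CPM in those of the node. The granule gene S100a9 had 2 UMIs in the high group of marrow replicate 1, against 272 UMIs in 4 cells of its low group, and the related S100a8 had 0 UMIs in the high group of marrow replicate 2, against 137 UMIs in 1 cell of its low group. Both were at 0 in both groups of the node. Cells with at least 3 markers of another type numbered 1 in the high group and 7 in the low group of marrow replicate 1, 0 and 1 in those of marrow replicate 2, and 4 and 4 in those of the node. Some of these markers were common in the ranked cells. In marrow replicate 1, Cd68, Fcer1g and the MHC class II gene Cd74 had a UMI in 31, 28 and 25 of 60 high cells. In its low group these were 24, 27 and 21. Whether the cells left out were of another type was therefore not established. No doublet caller was run, and apart from leaving these cells out, the part of such cells in the result was not tested. T and NK cell markers summed to 24.5 to 66.8 CPM in the high groups and 39.2 to 114 CPM in the low groups, and MHC class II genes to 188 to 247 CPM and 117 to 266 CPM. Of 17 measured T and NK cell markers, 7 had a UMI. Cd3e and Cd4 were at 0 in all 6 groups, while Gzma had 6, 1 and 11 UMIs in the high groups against 12, 1 and 17 in the low groups. The B cell and precursor list summed to 393, 400 and 652 CPM in the high groups and 527, 337 and 418 CPM in the low groups, more than the neutrophil list in each high group, in the order marrow replicate 1, marrow replicate 2 and node. Of its 15 genes 12 were at 0 in all 6 groups, among them Cd79a, Ms4a1, Pax5, Dntt, Rag1 and Ebf1. Cd79b, a signalling chain of the B cell receptor, had 134, 49 and 166 UMIs in the high groups, against 171, 42 and 99 UMIs in the low groups, in 48, 24 and 45 cells of the high groups and 56, 22 and 35 cells of the low groups. Of 25 measured plasma cell genes, 22 had a UMI, and Cd27, Cd38 and Tnfrsf13b were at 0.

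Depth differed little between the groups. The median total UMIs were 5652 in the high group and 5099 in the low group of marrow replicate 1, 3188 and 3317 in those of marrow replicate 2, and 4874 and 4268 in those of the node. At 1800 UMIs the low group showed slightly more different genes per cell in each library, with medians of 1112 in the high group against 1149 in the low group of marrow replicate 1, 1110.5 against 1127.5 in marrow replicate 2, and 1105 against 1136.5 in the node.

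Thinning discards most UMIs, so the same contrast was also fitted on all UMIs of the same cells, a setting planned as an alternative. It tested 4619 genes and called 55 higher (1.19%) and 12 lower (0.26%), and all 12 genes called at equal depth were among these 67. The prior degrees of freedom of this fit were not recorded, and its p-values may rest mostly on variance shared between genes. For Creld2 it gave 1.36 ± 0.10 (SE; edgeR adjusted p = 2.49e-35), against 1.40 ± 0.16 (edgeR adjusted p = 0.000306) at equal depth. A small p-value here thus does not measure the spread of a gene between the 3 libraries. CPM values from here on come from all UMIs. The higher genes again lay mostly in the secretory pathway: 35 of the 194 tested members of 7 secretory lists (230 genes in the tables) were called higher. No member was called lower by edgeR, 0 were lower at an unadjusted p under 0.05, and DESeq2, run at equal depth, called 2 members higher and 0 lower. The median log2 fold change was 0.31 over these 194 genes and -0.0012 over all 4619, and 85.6% of the 194 lay above 0, against 49.7% of all genes tested. Without cells carrying markers of other types, 27 members of the 7 lists were called higher. Without marrow replicate 1, marrow replicate 2 or the node, 19, 26 and 20 members were called higher, with 0 lower in each.

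Among ER chaperones and co-chaperones, 11 of 29 tested members were called higher and 27 lay above 0, with a median log2 fold change of 0.39. Without marrow replicate 1, marrow replicate 2 or the node, 8, 6 and 6 of the 11 were still called. Besides Creld2, Dnajc3 and Serp1, these were Hspa13, Sdf2l1, Mcfd2, Lman1, Dnajb11, Fkbp11, Ppib and Sep15. Sdf2l1, a partner of BiP and its J-domain proteins, had 389, 452 and 854 CPM in the high groups, against 239, 282 and 495 CPM in the low groups (log2 fold change 0.74 ± 0.14, SE; edgeR adjusted p = 4.73e-05). Dnajb11, a J-domain co-chaperone known as ERdj3, had 1151, 1482 and 1208 CPM in the high groups, against 763, 939 and 917 CPM in the low groups (0.54 ± 0.10; edgeR adjusted p = 7.02e-06). Members that were not called included Hyou1, the nucleotide exchange factor of BiP, at a log2 fold change of 0.80 ± 0.27 (edgeR adjusted p = 0.115), Canx (calnexin), at 0.25 ± 0.11 (edgeR adjusted p = 0.376), and Dnajb9, at 0.60 ± 0.15 (edgeR adjusted p = 0.00845), whose direction was not shared by marrow replicate 2.

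Of the disulfide isomerases and ER redox genes, 5 of 18 were called higher, with a median log2 fold change of 0.26: Pdia3, Selk, Vimp, P4hb and Txndc5. Without marrow replicate 1, marrow replicate 2 or the node, 2, 4 and 2 of the 5 were still called, with P4hb and Vimp lost without either marrow replicate 1 or the node. P4hb, the abundant protein disulfide isomerase, had a log2 fold change of 0.33 ± 0.09 (edgeR adjusted p = 0.0145). Of the translocon, signal recognition particle and signal peptidase genes matched by symbol, 5 of 26 were called higher, with a median of 0.30. To the 3 Ssr genes this added Sec61b, a subunit of the Sec61 channel, at 0.34 ± 0.10 (edgeR adjusted p = 0.0336), and Sec11c, a signal peptidase subunit, at 0.39 ± 0.09 (edgeR adjusted p = 0.00258). These 2 calls were lost whichever library was left out, and the 3 Ssr calls were kept.

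Of the N-glycosylation genes, 3 of 31 were called higher, with a median of 0.22. Gmppb, which makes the GDP-mannose used to build glycans, had 93.4, 100.5 and 99.0 CPM in the high groups, against 21.2, 39.1 and 38.4 CPM in the low groups. Its groups did not overlap, and its log2 fold change of 1.64 ± 0.38 (edgeR adjusted p = 0.0018) rested on 88 UMIs in all. Rpn1 and Ostc, subunits of the oligosaccharyltransferase that attaches glycans, had log2 fold changes of 0.48 ± 0.09 and 0.42 ± 0.11 (edgeR adjusted p = 1.75e-05 and 0.0140). Rpn1 stayed called whichever library was left out, Ostc in none of these fits, and Gmppb was lost without marrow replicate 1.

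Of the ER-associated degradation genes, 5 of 27 were called higher, with a median of 0.34. Herpud1, which organises the degradation complex at the ER membrane, had 611, 720.2 and 825 CPM in the high groups, against 376, 274 and 273 CPM in the low groups. The groups did not overlap, the split was narrowest in marrow replicate 1, and the log2 fold change was 1.15 ± 0.14 (edgeR adjusted p = 4.49e-14). At equal depth it had a similar size, 1.13 ± 0.26, and missed the threshold (edgeR adjusted p = 0.0710). Sel1l, the adaptor of the ubiquitin ligase Hrd1, had 1804, 2052 and 2388 CPM in the high groups, against 1336, 1401 and 1437 CPM in the low groups (0.57 ± 0.08; edgeR adjusted p = 2.46e-10). Man1b1, a mannosidase that trims glycans of misfolded proteins, was also called, at 0.62 ± 0.18 (edgeR adjusted p = 0.0317), a call lost whichever library was left out, while the other 4 were kept.

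Of the genes of transport between ER and Golgi, 6 of 52 were called higher, with a median of 0.28. Sec24d, a cargo-binding coat protein of the vesicles that leave the ER, had 205, 201 and 144 CPM in the high groups, against 90.9, 149 and 81.0 CPM in the low groups (0.89 ± 0.24; edgeR adjusted p = 0.0158). Stx5a, a Golgi membrane fusion protein, had 117, 193 and 132 CPM in the high groups, against 48.5, 62.6 and 98.1 CPM in the low groups (1.00 ± 0.28; edgeR adjusted p = 0.0214). The others were Tmed2, Tmed9, Surf4 and Lman2, which carry or sort cargo between the 2 compartments. None of the 6 was still called without marrow replicate 1, 3 were without marrow replicate 2, 3 without the node, and 2 (Sec24d and Tmed9) without the cells with markers of another type.

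**Figure D3:**
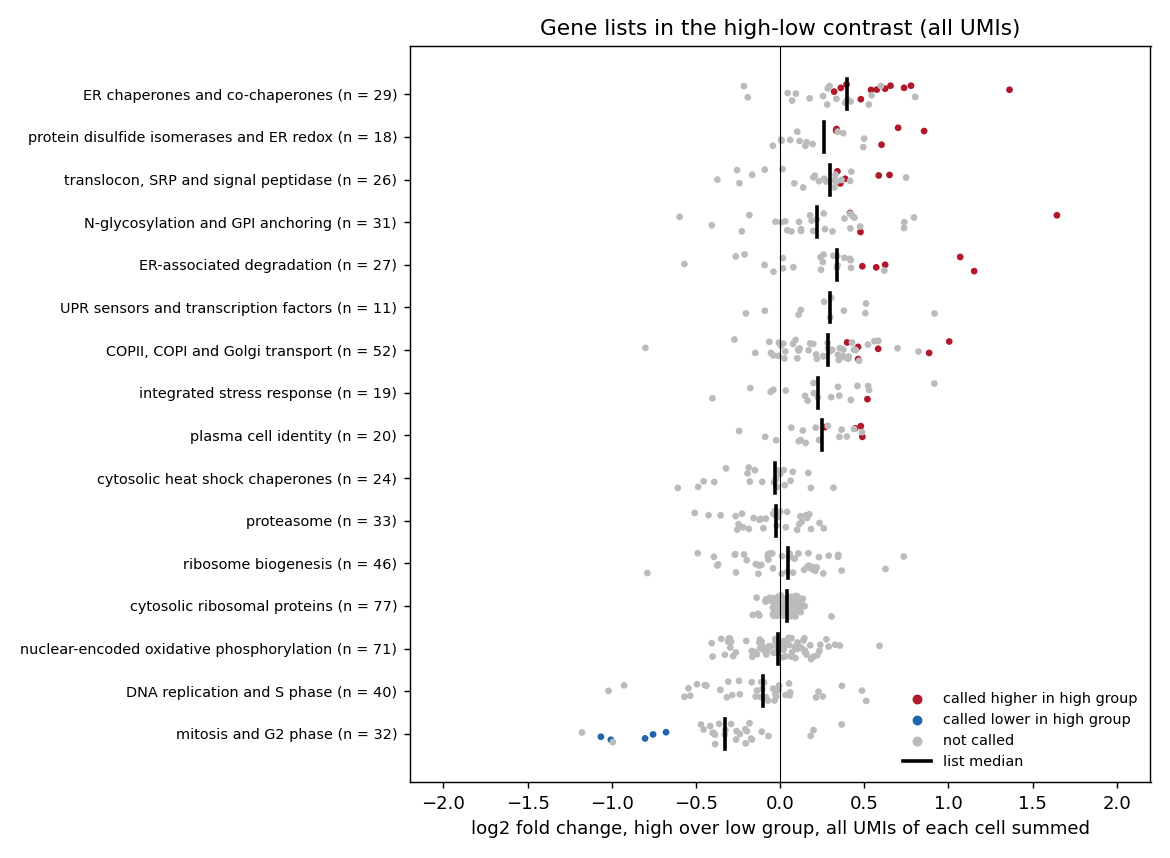
Each point is a gene of the named list in the fit on all UMIs, and the horizontal axis is its log2 fold change, high over low group. Red points were called higher, blue points lower and grey points were not called, black bars are list medians, and n is the number of genes tested. The lists of the secretory pathway sit right of 0, with medians up to 0.39, and the mitosis list sits left, with a median of -0.33.

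Of the sensors and transcription factors of the unfolded protein response, edgeR called 0 of 11 tested, with 4 higher at an unadjusted p under 0.05, and DESeq2 called 0 of 6 at equal depth. Their median log2 fold change was 0.30. Xbp1 mRNA had 4457, 4966 and 3789.6 CPM in the high groups, against 3904, 4321 and 3842 CPM in the low groups, and the node did not share the direction of the marrow (0.12 ± 0.06; edgeR adjusted p = 0.459). The counts are taken at the 3′ end of transcripts and do not tell spliced from unspliced Xbp1. Atf6 had 389, 435 and 371 CPM in the high groups, against 299.8, 227 and 273 CPM in the low groups. Its groups did not overlap, and it missed the threshold (0.51 ± 0.16; edgeR adjusted p = 0.0659). Eif2ak3 had 114, 126 and 66.0 CPM in the high groups, against 45.4, 54.8 and 59.7 CPM in the low groups (0.92 ± 0.32; edgeR adjusted p = 0.158). Ern1 was too rare to test, with 2, 0 and 3 UMIs in the high groups against 2, 2 and 5 UMIs in the low groups.

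Of the integrated stress response genes, 1 of 19 was called higher: Slc7a5, a subunit of an amino acid transporter, at a log2 fold change of 0.52 ± 0.15 (edgeR adjusted p = 0.0357). This call was lost without marrow replicate 1, without marrow replicate 2, without the cells with markers of another type and with groups taken within mitotic classes. Atf4 had 439.7, 469 and 474 CPM in the high groups, against 354, 297 and 354 CPM in the low groups. These groups did not overlap, and the difference missed the threshold (0.42 ± 0.15; edgeR adjusted p = 0.144). Ddit3 (Chop), the death-linked factor downstream of Atf4, had 2, 0 and 0 UMIs in the high groups against 1, 0 and 2 UMIs in the low groups.

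Plasma cell identity genes included 4 called higher of 20 tested, with a median of 0.25, and 2 of these, Edem1 and Fkbp11, are themselves ER genes. Without marrow replicate 1, marrow replicate 2 or the node, 2, 1 and 3 of the 4 were still called, and without the cells with markers of another type 2 were (Edem1 and Pou2af1), with a list median of 0.13. Pou2af1, a B lineage coactivator, had 898, 1265 and 1410.3 CPM in the high groups, against 775, 822 and 947 CPM in the low groups (0.45 ± 0.10; edgeR adjusted p = 0.000955), and its call was lost without marrow replicate 2 and without the node. Sdc1, which encodes the CD138 used in the sort, had a log2 fold change of 0.40 ± 0.12 and missed the threshold (edgeR adjusted p = 0.0523). Jchain, used in the choice of cells only as an upper limit, had 0.13 ± 0.05 (edgeR adjusted p = 0.284). Mzb1, an ER protein of B and plasma cells, had 12, 41.9 and 1282 CPM in the high groups, against 54.5, 31.3 and 934 CPM in the low groups, high in the node in both groups (0.28 ± 0.17; edgeR adjusted p = 0.674). Antibody chain genes were not analysed here.

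The mouse genes Myc and Nras did not differ detectably. Counts per gene do not show whether transcripts of the MYC transgene or of the recombined Nras allele were among them. Myc had 1422, 1675 and 1464 CPM in the high groups, against 1202, 1448 and 1394 CPM in the low groups (0.17 ± 0.08; edgeR adjusted p = 0.489), and Nras had a log2 fold change of 0.07 ± 0.16 (edgeR adjusted p = 0.958). Of 24 cytosolic heat shock genes, 0 were called by edgeR, 0 were higher and 4 lower at an unadjusted p under 0.05, and 0 of 22 were called by DESeq2 at equal depth. Their median log2 fold change was -0.03 on all UMIs, and -0.19 at equal depth, where 2 of 22 lay above 0. Medians on all UMIs were -0.03 over 33 proteasome genes, 0.04 over 77 cytosolic ribosomal protein genes and 0.05 over 46 ribosome biogenesis genes. Of 40 S phase genes edgeR called 0, with 3 lower and 0 higher at an unadjusted p under 0.05 and a median of -0.10.

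Mitotic genes were the list with calls on the lower side. On all UMIs, 5 of 32 tested genes of mitosis and G2 phase were called lower in the high group, against 0.26% of all genes, and the list's median log2 fold change was -0.33. Leaving out marrow replicate 1, marrow replicate 2 or the node left 2, 3 and 2 called lower, and leaving out the cells with markers of another type left 3. Ccnb1, the cyclin that drives entry into mitosis, had 60.2, 58.6 and 61.9 CPM in the high groups, against 136, 93.9 and 119 CPM in the low groups, with no overlap (-1.01 ± 0.29; edgeR adjusted p = 0.0412). Smc4, a condensin subunit, had 199, 193 and 219 CPM in the high groups, against 379, 352 and 333 CPM in the low groups (-0.80 ± 0.17; edgeR adjusted p = 0.000432). Ccna2, the cyclin of S and G2 phase, had 277, 318 and 177 CPM in the high groups, against 382, 399 and 422 CPM in the low groups (-0.68 ± 0.16; edgeR adjusted p = 0.00275). Hmgb2, a chromatin protein of dividing cells, and Psrc1, a spindle protein, were also called lower, at -0.75 ± 0.16 and -1.06 ± 0.30 (edgeR adjusted p = 0.000499 and 0.0319). Mki67 was not called, and marrow replicate 2 went against the other libraries (-0.40 ± 0.28; edgeR adjusted p = 0.747). At equal depth 14 genes of the list were tested, and edgeR and DESeq2 called 0 of them, with 4 lower and 0 higher at edgeR's unadjusted p under 0.05.

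Most cells of both groups held mitotic transcripts. At equal depth, the share of cells with at least 2 UMIs of the list was 91.7% of the high group (95% exact binomial interval 81.6 to 97.2) and 96.7% of the low group (88.5 to 99.6) in marrow replicate 1. It was 86.1% (70.5 to 95.3) and 97.2% (85.5 to 99.9) in the high and low groups of marrow replicate 2, and 83.3% (69.8 to 92.5) and 87.5% (74.8 to 95.3) in those of the node. The intervals, which cover counting error only, overlap in each library. The median number of mitotic UMIs per cell was 6 in the high group against 10 in the low group of marrow replicate 1, 8 against 8.5 in marrow replicate 2, and 5.5 against 8 in the node. When the groups were taken separately among cells with and without 2 mitotic UMIs, 51 genes were called higher and 11 lower, and 60 of the 67 calls were kept. That split bears on few cells, since 0 to 4 cells of a group held fewer than 2 such UMIs before thinning.

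Outside the lists, 16 genes were called higher and 7 lower. Among the 16 was H13, another symbol of Hm13, which the translocon list holds but which was not matched to the counts. The counts given for that list and for the secretory lists leave it out. Of the 16, 6 were still called without marrow replicate 1, 8 without marrow replicate 2 and 7 without the node, and of the 7 these were 4, 3 and 2. Among the higher genes were Isg20, an exonuclease gene named for its response to interferon, with 274, 243 and 367 CPM in the high groups, against 93.9, 149 and 213 CPM in the low groups (1.05 ± 0.19; edgeR adjusted p = 1.06e-05). Entpd1, which encodes the ATP-hydrolysing surface enzyme CD39, had 316, 327 and 301 CPM in the high groups, against 176, 188 and 149 CPM in the low groups (0.89 ± 0.18; edgeR adjusted p = 0.000211). For both genes the high and low groups did not overlap. Entpd1 stayed called whichever library was left out, and Isg20 was lost without marrow replicate 1. Zfp36, an immediate early gene that destabilises mRNA, was the only call of its list, at 0.69 ± 0.16 (edgeR adjusted p = 0.00265), and was lost without the node and without the cells with markers of another type. Slc39a7, a zinc transporter of the ER and Golgi membranes, was called at 0.61 ± 0.15, and Atp2a2, the calcium pump of the ER, at 0.54 ± 0.14 (edgeR adjusted p = 0.00632 and 0.00845), and both were lost without marrow replicate 1. Malat1, a long RNA kept in the nucleus, was not called, at 0.14 ± 0.23 (edgeR adjusted p = 0.932). The rest of the 10 with the largest fold change were Sdc3, Cyp2b10, Tpp1, Mmadhc, Ddx3x, Atp8b2 and Cdk2ap2, with log2 fold changes from 0.60 to 1.57.

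The genes called lower outside the lists were Tmsb4x, Vim, Tuba1b, Tubb5, Sun2, Plac8 and Rab30. Vim, the intermediate filament vimentin, had 120.5, 92.1 and 74.2 CPM in the high groups, against 291, 337 and 115 CPM in the low groups (-1.25 ± 0.22; edgeR adjusted p = 5.55e-06). The tubulin genes Tuba1b and Tubb5 had log2 fold changes of -0.59 ± 0.13 and -0.38 ± 0.09 (edgeR adjusted p = 0.000526 and 0.0041). Neutrophil RNA stood in the low groups of both marrow libraries, as given above. When the cells with markers of another type were left out of the fit on all UMIs, 39 genes were called higher and 8 lower, with Vim, Rab30, Tuba1b, Tubb5 and Tmsb4x still called and Plac8 and Sun2 no longer called.

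The node did not differ detectably from the marrow in this contrast. An interaction of group and tissue, fitted by edgeR with 1 residual degree of freedom, called 0 of 1847 genes. At an unadjusted p under 0.05 it had 104 genes by edgeR and 1 by DESeq2, which called 0 as well, and the smallest edgeR adjusted p was 0.240. With 1 node library the fit assumes that it varies like the marrow pair. Side by side, the log2 fold change of Herpud1 at equal depth was 0.21 and 1.41 in the marrow libraries and 1.87 in the node, and that of Creld2 was 1.05 and 1.22 in the marrow and 1.67 in the node.

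The middle group fell between the other 2 in 32 of 36 combinations of the 12 genes called at equal depth and the 3 libraries. Its cells took no part in the fit but were set by the same ranking. The 12 genes were picked because the high and low groups differ, so a middle value between them is favoured. The same count over genes not called was not made. Creld2 had 1507 CPM in the middle group of the node, between 2109 CPM in its high group and 813 CPM in its low group. Derl3 had 447, 439 and 660 CPM in the middle groups, between 554, 542 and 808 CPM in the high groups and 209, 356 and 419 CPM in the low groups. The 4 exceptions were Pdia3 in marrow replicate 2, Ssr2 and Tmsb4x in marrow replicate 1, and Ly6c2 in the node.

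**Figure D4:**
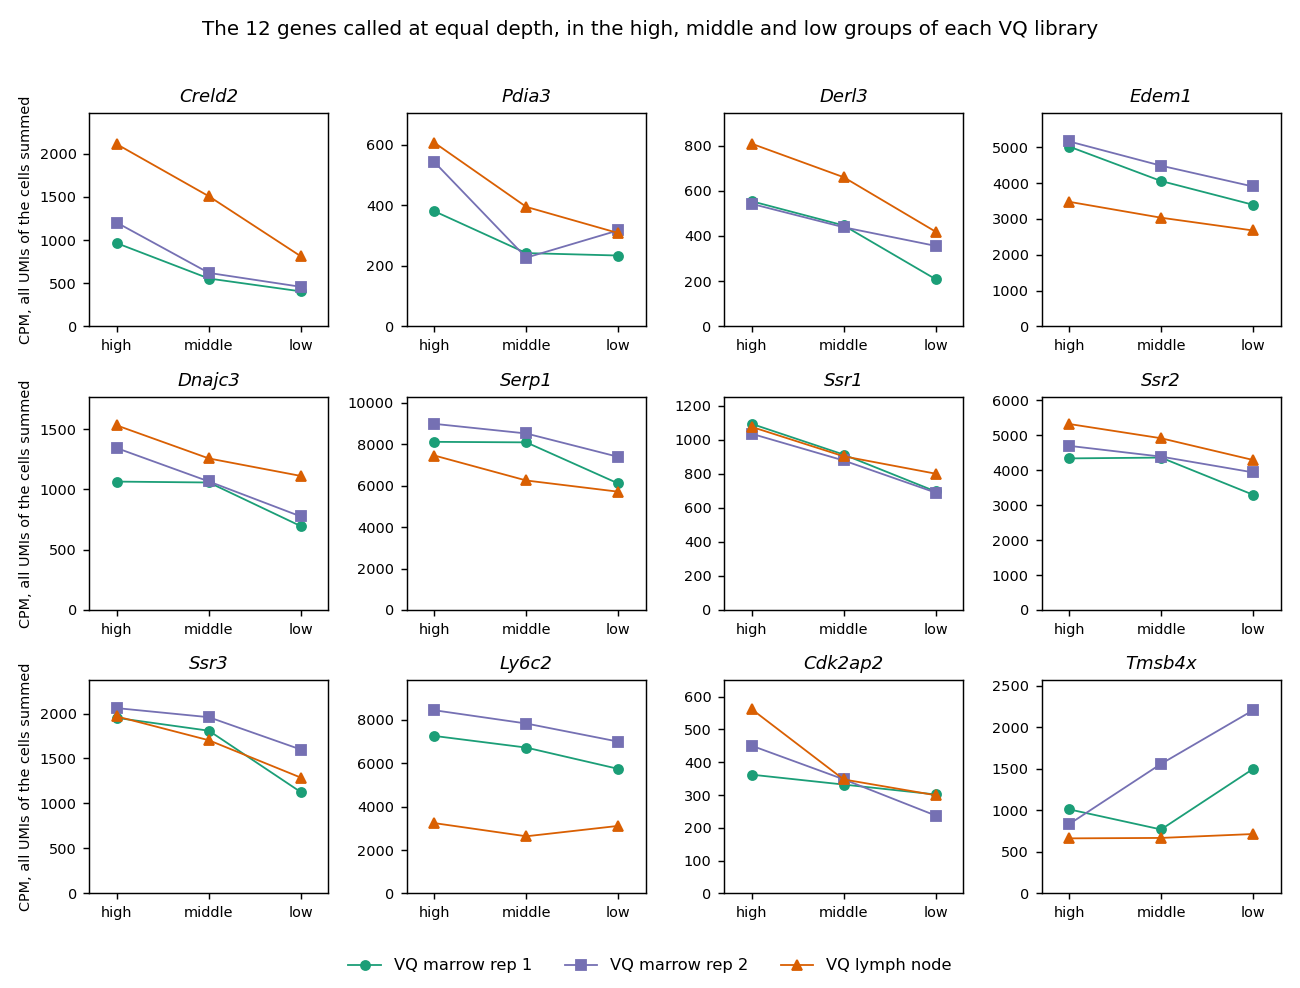
Each panel shows 1 of the 12 genes called at equal depth, as CPM of the summed cells (all UMIs) in the high, middle and low groups from left to right, with a line for each library. The middle group lies between the other 2 in 32 of 36 lines, and among the exceptions is Pdia3 in marrow replicate 2, where the middle group (227 CPM) lay under the low group (317 CPM).

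Promoters of the genes were searched for elements of the unfolded protein response. The ranking used no sequence, but its 6 genes are of the kind that these elements are known to raise. Their matches are therefore given as a description and not as a separate result. The RefSeq promoter table (GRCm38.p6) gives 250 bases before and 50 after the start of a gene and held 27025 genes. The ERSE was searched on both strands as CCAAT, then 9 bases of any kind, then CCACG, and was found in 37 of all promoters (0.137%). It was in 4 of the 5 ranking genes with a promoter in the table, Hspa5, Hsp90b1, Calr and Pdia6, and in 3 of the 10 genes called higher at equal depth with a promoter, Creld2, Dnajc3 and Derl3. Of the 1447 genes tested at equal depth that had a promoter, 5 held it (0.346%). The other 2 were Canx and Syvn1, which were not called, at log2 fold changes of 0.25 and 0.62 on all UMIs (edgeR adjusted p = 0.376 and 0.200). The short element ERSE-II, searched on both strands as ATTGG, 1 base of any kind and CCACG, was in 12 of all promoters (0.0444%), and in 7 of the 3600 promoters of genes tested on all UMIs (0.194%). Of these 7, Herpud1 and Dnajb11 were called higher and Krtcap2, Lgalsl, Nucb1, Rbm39 and Rcl1 were not called. The element UPRE, searched on both strands as TGACGTGG, was in 6 of the 42 promoters of genes called higher on all UMIs (14.3%). It was in 1.36% of those of all genes tested, and in none of the 10 at equal depth. Most genes called higher belong to the secretory lists, called or not, whose 181 promoters held UPRE in 12 (6.63%). These 181 also held the ERSE in 6 (3.31%) and ERSE-II in 3 (1.66%), so part of these shares is common to secretory genes. The element CARE, searched on both strands as TGATGCAA, was in 1 of the 42 promoters of genes called higher (2.38%), against 0.75% of those of all genes tested. None of the 9 promoters of genes called lower held any of these elements. With shares of at most 1.36% per element over all genes tested, 9 promoters are too few to read this as a difference. A match says that the letters are there, not that a factor binds.

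The bases before the start are shown for 2 ranking genes with an ERSE, for the 3 genes called higher at equal depth that hold it, and for Herpud1 with its ERSE-II, read 5′ to 3′ along the gene. Capitals mark the fixed letters of the element, which reads against the gene where CGTGG comes before ATTGG.
Hspa5, chr2:34771840-34772089, plus strand: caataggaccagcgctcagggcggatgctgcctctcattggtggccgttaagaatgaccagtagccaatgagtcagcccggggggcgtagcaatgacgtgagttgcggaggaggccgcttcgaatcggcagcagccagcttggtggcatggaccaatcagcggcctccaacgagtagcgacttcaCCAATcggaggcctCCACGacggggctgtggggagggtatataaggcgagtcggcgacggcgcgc
Hsp90b1, chr10:86705445-86705694, minus strand: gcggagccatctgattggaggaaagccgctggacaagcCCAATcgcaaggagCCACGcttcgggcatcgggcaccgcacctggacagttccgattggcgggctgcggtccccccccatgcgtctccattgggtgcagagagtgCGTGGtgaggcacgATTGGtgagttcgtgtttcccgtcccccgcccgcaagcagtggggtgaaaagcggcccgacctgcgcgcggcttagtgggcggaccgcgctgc
Creld2, chr15:88819396-88819645, plus strand: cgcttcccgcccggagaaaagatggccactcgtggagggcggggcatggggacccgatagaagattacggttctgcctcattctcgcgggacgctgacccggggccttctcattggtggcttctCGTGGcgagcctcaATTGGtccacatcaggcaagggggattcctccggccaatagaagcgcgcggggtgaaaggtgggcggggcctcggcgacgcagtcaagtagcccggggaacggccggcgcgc
Dnajc3, chr14:118937682-118937931, plus strand: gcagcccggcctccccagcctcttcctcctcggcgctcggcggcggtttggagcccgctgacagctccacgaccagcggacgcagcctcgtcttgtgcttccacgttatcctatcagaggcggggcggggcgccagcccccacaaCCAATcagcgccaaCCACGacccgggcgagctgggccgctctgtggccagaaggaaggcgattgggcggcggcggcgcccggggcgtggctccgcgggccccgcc
Derl3, chr10:75893148-75893397, plus strand: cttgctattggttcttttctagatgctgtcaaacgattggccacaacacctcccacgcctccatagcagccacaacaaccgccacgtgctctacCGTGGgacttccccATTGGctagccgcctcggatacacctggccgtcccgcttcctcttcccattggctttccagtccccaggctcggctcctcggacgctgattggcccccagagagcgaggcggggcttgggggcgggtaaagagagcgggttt
Herpud1, chr8:94386179-94386428, plus strand: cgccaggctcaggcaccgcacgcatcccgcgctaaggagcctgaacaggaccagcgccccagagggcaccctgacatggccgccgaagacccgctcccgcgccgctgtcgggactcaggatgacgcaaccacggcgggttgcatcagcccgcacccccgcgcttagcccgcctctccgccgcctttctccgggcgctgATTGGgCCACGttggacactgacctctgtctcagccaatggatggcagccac

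Counted from the starts that the promoter table implies, which for some genes differ from the annotation's, the element began 65 bases before the start of Hspa5, 126 before that of Creld2, 105 before that of Dnajc3 and 156 before that of Derl3. Hsp90b1 held it at 212 and, read against the gene, at 107 bases before the start. In Hspa5 and Dnajc3 it read along the gene, in Creld2 and Derl3 against it. The 3 ERSE genes outside the ranking had log2 fold changes of 1.40 (Creld2), 0.97 (Derl3) and 0.69 (Dnajc3) at equal depth, and Herpud1 had 1.15 on all UMIs.

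In the GRCm38 (mm10) annotation, whose starts differ from those of the promoter table for the genes given here other than Creld2, Creld2 spans chr15:88819646-88826683, Pdia3 chr2:121413775-121438687, Derl3 chr10:75893413-75895941, Dnajc3 chr14:118937976-118981697, Herpud1 chr8:94386438-94395377 and Tmsb4x chrX:167207093-167209315. The counts are per gene and from the 3′ end, so they do not tell apart exons or isoforms.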

How the data were processed

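Single cells sorted as CD138+ B220- were isolated on the ddSEQ instrument and made into 3′ whole-transcriptome libraries, per the labels' protocols. The deposited tables hold UMI counts per cell and gene, unscaled, for 24421 genes. The mm10 build is given in the submitters' processing notes, and the aligner is not given in the sources used here. Ranking, thinning without replacement and sums per library and group were done in Python 3.11.15. The 6 sums were fitted in R 4.3.3 with edgeR 4.0.16 (TMM, filterByExpr, library block, 2 residual degrees of freedom, tested on simulated data). DESeq2 1.42.0 was an alternative. Library sizes were the whole sums, a choice made after results had been seen, and sizes from the tested genes only gave 13 genes higher in place of 11. The block pairs the groups of 1 library, which share cells' preparation. Total UMIs per library ranged from 457158 to 1066884 in VQ and no ranked cell was too shallow for 1800. Named genes are the 3 largest fold changes among calls in each direction of each list, the 10 largest outside the lists (at least 30 UMIs), every other call where stated, and 20 genes always given. The members and the 30 gene lists were chosen with earlier results of these data known. Lists that are not described had no called gene. The search of protein ends planned beside the promoters was not run.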

Additional observations from a re-analysis of the deposited data

How the results depend on the processing

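All 12 genes called at equal depth kept their sign in each setting run, and the number called moved with the setting. Against 11 higher and 1 lower at equal depth as reported, the calls higher and lower were 55 and 12 without thinning, 18 and 3 with groups taken within mitotic classes, 7 and 1 with at least 3000 UMIs, 21 and 4 with Jchain under 1%, 17 and 2 without a filter on low counts, 14 and 3 thinned to 1000 UMIs, 15 and 2 with another thinning seed, 11 and 4 when ranked on thinned cells, 9 and 0 when ranked on 4 genes, 9 and 0 without TMM, 3 and 0 by DESeq2, and 1 and 0 with no replicate block. Leaving out 1 library gave 2 higher and 0 lower without marrow replicate 1, 5 and 0 without marrow replicate 2, and 9 and 9 without the node. Of the 12 calls, 1, 5 and 9 were kept. The cause was not tested, beyond the fewer sums each of these fits holds. Chosen after seeing the data, the fits without thinning called 39 and 8 without cells of other type markers, 51 and 11 within mitotic classes, 32 and 6 without marrow replicate 1, 36 and 6 without marrow replicate 2, and 33 and 12 without the node. Also chosen after seeing the data, library sizes from tested genes only gave 13 and 1, with Herpud1 and Rpn1 added. The difference between node and marrow had 0 calls in each setting in which it could be fitted; leaving out a marrow library left no residual degrees of freedom. Thinned to 1800 UMIs, 152 genes had an unadjusted p under 0.05 and 12 an adjusted one. Why fewer genes were called than without thinning was not tested.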

Other observations

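Cells outside the ranking were split the same way, as values with no test, and with the genes chosen on the ranked cells. Of the 83 wild-type cells with at least 2000 UMIs, 27 with the highest share of the 6 ranking genes and 27 with the lowest were thinned to 1700 UMIs. All 11 genes called higher at equal depth in the VQ cells had more UMIs per cell in the wild-type high group. Creld2 had 107 UMIs in the high cells and 5 in the low cells, Derl3 had 90 and 5, and Edem1 had 152 and 16. The split was small for Ssr1 (14 and 12 UMIs) and Ly6c2 (38 and 34 UMIs), and Pdia3 had 14 and 6. The wild-type low group also held 800 UMIs of neutrophil and myeloid markers, against 11 in the high group, so other cell types stood among its cells.

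VQ cells with at least 1000 and under 2000 UMIs, too shallow for the ranking, were thinned to 800 UMIs and split within each library, with 8, 9 and 8 cells per group. Of the 11 genes, 9 had more UMIs per cell in the high group of marrow replicate 1, 9 in that of marrow replicate 2 and 8 in that of the node. In the node, Serp1 (35 against 54 UMIs) and Ly6c2 (5 against 16) were lower in the high cells, and Ssr1 had 6 UMIs in both. Together the 11 genes had 24.5 UMIs per cell in the high group and 2.38 in the low group of marrow replicate 1, 25.1 and 15.0 in those of marrow replicate 2, and 21.6 and 17.6 in those of the node. The low group of marrow replicate 1 had a median share of the 6 ranking genes of only 0.123%. Those of marrow replicate 2 and the node had 1.08% and 1.00%. Whether that low group held cells of another type was not tested. Tmsb4x had 12 UMIs in the high cells and 95 in the low cells of marrow replicate 1, 4 and 62 in those of marrow replicate 2, and 3 and 3 in those of the node. Neutrophil and myeloid markers had 0 and 36, 3 and 366, and 2 and 0 UMIs in the high and low groups of the same libraries.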
